A study of Homo sapiens with 6 samples.

Results

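Collagens are the extracellular proteins built from 3 polypeptide chains wound into a triple helix, and the 43 genes described here encode such chains. The members were all genes whose symbol in the platform annotation has the form COL, number, A, number, counting probe sets that name 1 gene only. They made up 43 of 18132 measured genes and 121 of 49293 probe sets, and 14 of them had a single probe set. The RNA came from U87 cells, an established human glioblastoma line, on 1-colour biotin-labelled arrays. One group of 3 samples overexpressed the microRNA miR-151a and the other group of 3 overexpressed the negative control miR-NC. Both groups are the same line with an introduced microRNA, and the labels name no other agent. The sources used here do not give the arm of miR-151a, the vector or the duration. They also do not say whether replicates came from separate cultures, and p-values then reflect only sample-to-sample spread, possibly of technical origin.

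Fibrillar collagens (types I, II, III, V, XI, XXIV and XXVII) assemble into the banded fibrils that give tissue its tensile strength, and type V joins type I in mixed fibrils. Type IV forms the sheet-like network of basement membranes, and type VI forms beaded microfibrils at the surface of cells. The remaining types are mainly linker collagens that sit on fibrils, membrane-spanning collagens, short-chain network collagens and multiplexins, which carry long interruptions in the helix. In brain, collagens are largely kept to vessel walls and meninges, while glioma lines in culture commonly make several of them.

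The 6 arrays had close distributions, with median intensities of 57.1 to 58.6 over probe sets. Vimentin and CD44, both abundant in mesenchymal-like glioma lines, were at 19019 ± 484 and 6332 ± 271 (SD, n = 3) with miR-NC, whereas the astroglial gene GFAP was at 63.2 ± 0.592, below the median gene. Of 8 glioma and astroglial markers, 1 was lower with miR-151a in limma, NES, at a log2 fold change of -0.31, and 0 were higher (0 at an unadjusted p under 0.05). Markers of other cell types were of mixed level with miR-NC. Among the dimmest were the leukocyte gene PTPRC at 8.65 ± 0.649, the epithelial gene CDH1 at 9.83 ± 0.955 and the fibroblast gene POSTN at 7.64 ± 0.954 (SD, n = 3 each). Above the median gene lay the macrophage-associated CD68 at 1004 ± 29.9, the fibroblast markers FAP at 283 ± 9.52, S100A4 at 182 ± 7.31 and PDGFRB at 98.9 ± 2.37, and the endothelial KDR at 115 ± 7.62 (SD, n = 3 each). Fibroblast markers, which overlap with matrix-producing glioma cells, split in limma, with 2 of 8 higher (DCN and LUM) and 1 lower (S100A4). For scale, 8.11% of all genes were called lower and 7.27% higher. DCN was dim, at 20.3 ± 0.429 with miR-NC (SD, n = 3). Its 3 other probe sets did not pass, with log2 fold changes from 0.03 to 0.11. The summed intensity of the fibroblast markers ran from 700 to 728 with miR-151a and from 690.3 to 698 with miR-NC. Immune markers had 1 of 5 higher, CD163, and summed intensities of 1071 to 1165 with miR-151a and 1042 to 1098 with miR-NC. CD163 was dim on its 1 probe set, at 16.3 ± 2.83 with miR-151a and 9.90 ± 0.539 with miR-NC (SD, n = 3 each). In limma 0 of 4 endothelial and 0 of 4 epithelial markers passed (1 endothelial marker, PECAM1, and 0 epithelial markers at an unadjusted p under 0.05). The summed endothelial markers ran from 211 to 219 with miR-151a and from 215 to 238 with miR-NC, and the epithelial ones from 111 to 122.5 and from 109 to 126. Between the 3 prime and 5 prime control probe sets of beta-actin, the log2 ratio was 0.29 ± 0.015 with miR-151a and 0.40 ± 0.030 with miR-NC (SD, n = 3 each; exact permutation p = 0.1, the smallest possible). For GAPDH it was 0.047 ± 0.0042 and 0.041 ± 0.011 (SD, n = 3 each; exact permutation p = 0.5). The part of these shifts in the collagen results was not tested.

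The stretches upstream of 5 transcription starts and the gap between a head-to-head gene pair are shown because they belong to collagen genes whose levels differed between the groups, or to pairs read from 1 shared control region. They are RefSeq sequences of GRCh38.p14, and 31 of the 43 genes had an entry once the starts on 1 chromosome were left out. Each covers the 250 bases before the start, 5′ to 3′ on the gene's strand, except the gap between COL4A1 and COL4A2, which has 126 bases on the plus strand. Capitals mark 1 of 3 motifs, each searched on both strands. The GC box was searched as GGGCGG and, for the other strand, as CCGCCC. The TATA box was searched as TATAAA, with TTTATA for the other strand. The CCAAT box was searched under that spelling, with ATTGG for the other strand. Such motifs can share bases with one another, but none overlap in the stretches shown. COL5A1 (type V) is at chr9:134641553-134641802, plus strand. COL13A1 (a membrane-spanning collagen) is at chr10:69801656-69801905, plus strand. COL15A1 (a multiplexin) is at chr9:98943657-98943906, plus strand. COL4A5 (type IV) is at chrX:108439588-108439837, plus strand. COL21A1 (a linker collagen) is at chr6:56394129-56394378, minus strand, the 5′-most of 3 listed starts. The COL4A1-COL4A2 gap is at chr13:110307158-110307283.
COL5A1: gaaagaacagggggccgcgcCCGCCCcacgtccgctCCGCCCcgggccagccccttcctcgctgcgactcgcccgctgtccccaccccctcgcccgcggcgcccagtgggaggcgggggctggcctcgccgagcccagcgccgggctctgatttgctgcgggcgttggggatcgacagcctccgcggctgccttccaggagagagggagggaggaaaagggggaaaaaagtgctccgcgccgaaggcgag
COL13A1: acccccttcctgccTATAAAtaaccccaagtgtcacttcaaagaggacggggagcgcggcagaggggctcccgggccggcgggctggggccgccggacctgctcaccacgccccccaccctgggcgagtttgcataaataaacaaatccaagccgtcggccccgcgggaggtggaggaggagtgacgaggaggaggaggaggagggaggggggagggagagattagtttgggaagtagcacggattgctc
COL15A1: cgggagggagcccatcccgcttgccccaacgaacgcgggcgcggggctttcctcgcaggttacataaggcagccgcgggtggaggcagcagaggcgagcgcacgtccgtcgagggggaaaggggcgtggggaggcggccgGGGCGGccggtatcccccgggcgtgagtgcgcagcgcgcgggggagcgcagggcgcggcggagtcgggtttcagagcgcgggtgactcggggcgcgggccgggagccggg
COL4A5: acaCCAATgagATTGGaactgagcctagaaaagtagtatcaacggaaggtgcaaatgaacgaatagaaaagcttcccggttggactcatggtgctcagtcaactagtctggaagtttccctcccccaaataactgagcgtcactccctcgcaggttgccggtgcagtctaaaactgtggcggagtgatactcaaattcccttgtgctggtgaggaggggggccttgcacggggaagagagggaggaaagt
COL21A1: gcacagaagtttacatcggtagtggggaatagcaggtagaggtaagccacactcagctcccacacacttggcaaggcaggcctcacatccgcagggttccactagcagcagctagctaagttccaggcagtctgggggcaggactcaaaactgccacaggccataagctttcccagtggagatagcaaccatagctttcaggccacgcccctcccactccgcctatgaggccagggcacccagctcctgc
COL4A1-COL4A2: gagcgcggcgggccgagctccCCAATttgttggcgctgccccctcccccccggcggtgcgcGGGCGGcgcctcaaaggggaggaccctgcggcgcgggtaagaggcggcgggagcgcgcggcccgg
The upstream stretch of COL5A1 held 2 GC boxes and that of COL15A1 held 1, COL13A1 held 1 TATA box, and COL4A5 held 2 CCAAT boxes and 0 GC boxes. The stretch shown for COL21A1 held 0 of each, while that before 1 of its other listed starts held 1 GC box. The COL4A1-COL4A2 gap held 1 GC box and 1 CCAAT box. Over all 35116 RefSeq promoters of this length, 42.6% held a GC box, 10.7% a TATA box and 32% a CCAAT box. A match describes the letters only, and the 4 falling genes shown did not all share any 1 of these motifs. The other falling genes, COL1A1, COL1A2, COL5A2 and COL8A1, had no entry and could not be compared.

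With miR-151a, 8 of the 43 collagen genes were lower and 1 was higher. Those that fell were both chains of type I (COL1A1, COL1A2), both main chains of type V (COL5A1, COL5A2), COL4A5 of type IV, the membrane-spanning COL13A1, the network collagen COL8A1 and the multiplexin COL15A1, with falls from 13.6% to 26.6%. The gene that rose was COL21A1, a linker collagen, by 35.3%. These calls rest on limma fitted over all 18132 genes on log2(intensity + 1), with a Benjamini-Hochberg adjusted p under 0.05. Of all genes, 8.11% were called lower and 7.27% higher, against 18.6% and 2.33% of the collagen genes. The median log2 fold change was -0.08 over the collagen genes and -0.01 over all genes, and 28 of 43 lay below 0 where 52.6% of all genes did. Groups without overlapping values numbered 12 collagen genes in the lower direction and 4 in the higher, against 19.4% and 15.1% of all genes.

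The falls lay among the brighter members. A total of 16 collagen genes had a mean above the median gene level (an intensity of 81.2 with miR-NC) in at least 1 group, and of these 8 fell and 0 rose in limma, also at an unadjusted p under 0.05 for rises; 14% and 11.2% of all genes this bright were called lower and higher. Their median log2 fold change was -0.22, beside -0.02 for all genes this bright, and 14 of 16 lay below 0 where 56.3% of such genes did. Among the 27 dimmer members 0 fell, also at an unadjusted limma p under 0.05, and 1 rose, beside 2.04% and 3.18% of all dimmer genes. For the dimmer members the median was -0.01. A total of 15 members lay below the lower quartile of the genes, so the array gives little on them. In bulk RNA, fewer cells that make a transcript and less of it per cell cannot be told apart.

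**Figure D1:**
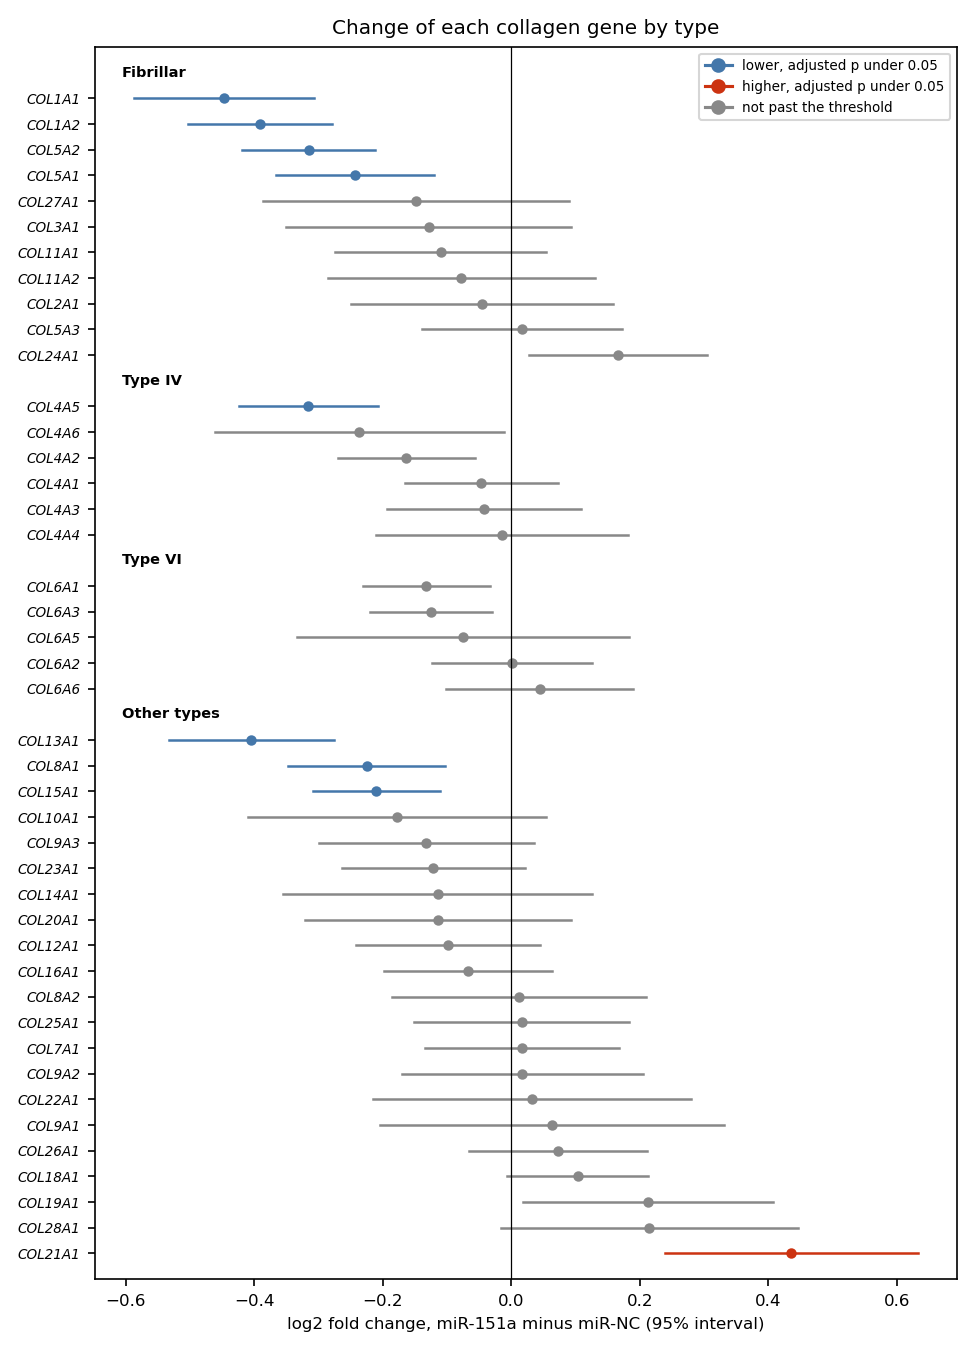
Log2 fold change of each of the 43 collagen genes (miR-151a minus miR-NC, on the log2(intensity + 1) scale) with the 95% interval of the limma fit, grouped by collagen type and sorted within each group. Blue marks the 8 genes past the threshold as lower, red marks COL21A1, the 1 gene past it as higher, and grey the other 34.

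Among the 11 fibrillar genes, 4 fell and 0 rose in limma (1 higher at an unadjusted p under 0.05, COL24A1), beside 8.11% and 7.27% of all genes. All 4 lay above the median gene level, where 14% of all genes fell. COL1A2, the second chain of type I collagen, had intensities of 1709, 1853 and 1815 in the miR-151a samples and 2335, 2382 and 2328 in the miR-NC samples. All 3 samples with miR-151a lay below all 3 controls. It fell by 23.7%, with a log2 fold change of -0.39 (standard error 0.048, 95% interval -0.50 to -0.28, limma adjusted p = 0.0019). Of its 6 probe sets 5 fell, the steepest at -0.55, and the dimmest of the 6 was at -0.12 with an adjusted limma p of 0.35.

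COL1A1, the more abundant chain of the type I triple helix, had intensities of 111, 124 and 127 with miR-151a and 164, 161 and 169 with miR-NC. The groups were again fully apart. It fell by 26.6% (log2 fold change -0.45, interval -0.59 to -0.31, limma adjusted p = 0.0028), the largest fall among the 43 genes in this fit. Only 2 of its 5 probe sets passed, the rest lying between -0.16 and -0.09, and with the mean over probe sets its log2 fold change was -0.23 (limma adjusted p = 0.015), so the size depends on which probes are read.

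COL5A2 and COL5A1, chains of the type V collagen that nucleates fibrils together with type I, both fell. COL5A2 had intensities of 389, 402 and 412 with miR-151a and 503, 503 and 492 with miR-NC, with no overlap. Its log2 fold change was -0.32 (interval -0.42 to -0.21, limma adjusted p = 0.0035); 3 of its 6 probe sets fell, and with the mean over probe sets the value was -0.13 (limma adjusted p = 0.041). COL5A1 had intensities of 355, 377 and 349.7 with miR-151a and 428, 409 and 444 with miR-NC. The groups did not overlap here either, and its log2 fold change was -0.24 (interval -0.37 to -0.12, limma adjusted p = 0.020), with 2 of 4 probe sets lower. In limma COL5A1 no longer passed when replicate 1 or 3 of miR-151a was left out (adjusted p = 0.061 and 0.069), or replicate 1 or 3 of miR-NC (0.064 and 0.074), in a range from 0.00028 to 0.074 over the alternatives.

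The other 7 fibrillar genes did not pass and had log2 fold changes from -0.15 to 0.17. COL5A3, a further type V chain, was at 42.7 ± 3.16 with miR-151a and 42.2 ± 2.13 with miR-NC (SD, n = 3 each), and the interval of its log2 fold change ran from -0.14 to 0.17. COL3A1, which often accompanies type I in fibrils of soft tissue, was dim in both groups, at 17.1 ± 0.939 and 18.9 ± 2.59 (SD, n = 3 each), with an interval from -0.35 to 0.09.

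**Figure D2:**
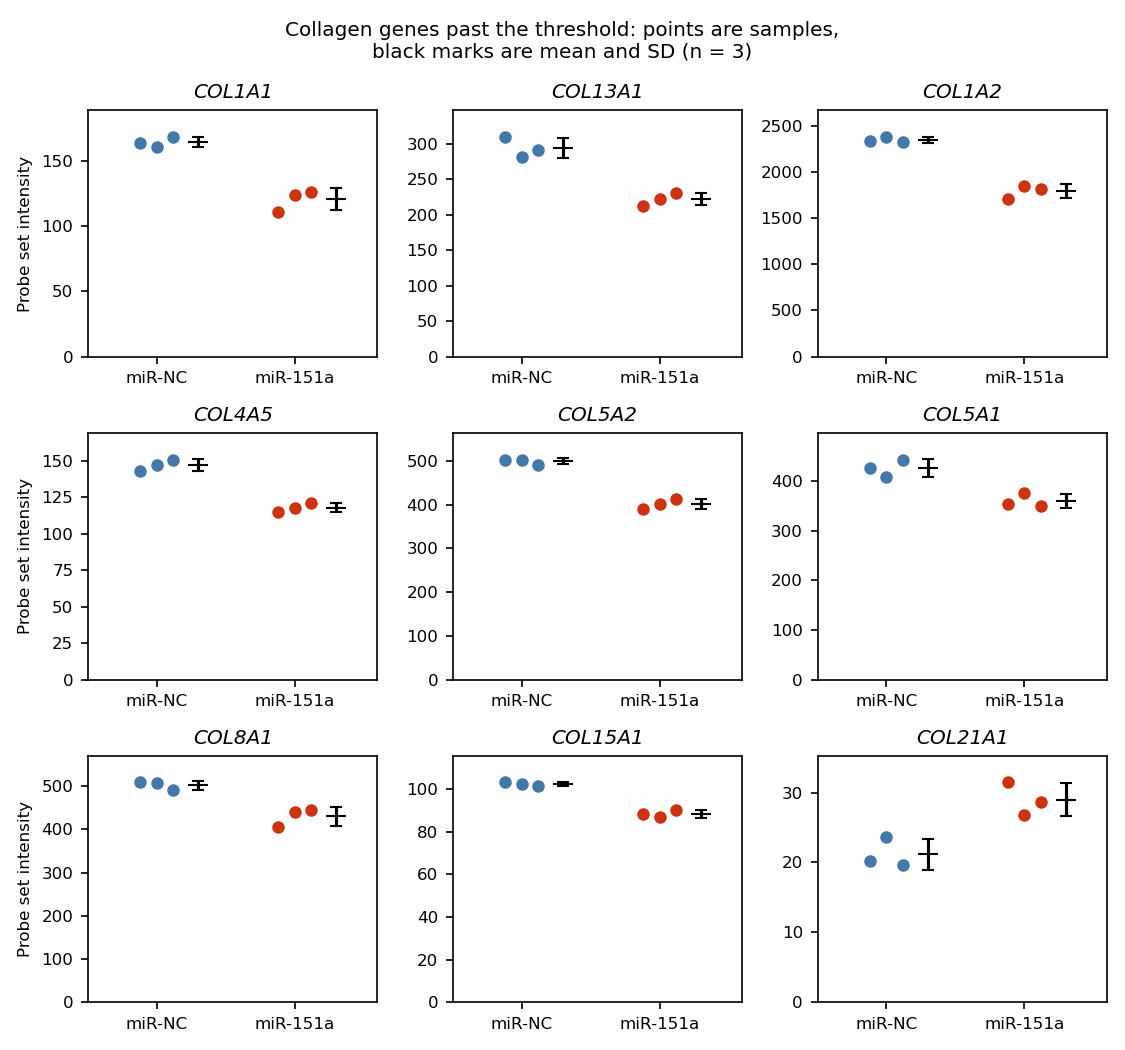
Probe set intensity (linear scale from 0, each gene on its own axis) in each of the 6 samples for the 9 collagen genes past the threshold. Points are samples, black marks are the mean and SD (n = 3). In all 9 panels the 3 miR-151a values and the 3 miR-NC values do not overlap, lower with miR-151a in 8 and higher in COL21A1.

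Type IV genes come in head-to-head pairs, each pair sharing a short control region between the starts of its genes. COL4A5 fell and its neighbour COL4A6 did not pass the test. Compared directly, the log2 ratio of COL4A5 to COL4A6 differed by -0.08 (miR-151a minus miR-NC), with overlapping groups (exact permutation p = 0.7). COL4A5 had intensities of 115, 118 and 121 with miR-151a and 143, 147 and 151 with miR-NC, fully separate, and a log2 fold change of -0.32 (interval -0.42 to -0.21, limma adjusted p = 0.0040). With the mean over its 3 probe sets, of which 2 fell, it was at -0.16 (limma adjusted p = 0.032). COL4A6, whose protein chain assembles with that of COL4A5, had intensities of 77.6, 91.4 and 101 with miR-151a and 113, 99.7 and 105 with miR-NC, which overlap. Its log2 fold change of -0.24 had an interval from -0.46 to -0.01 (limma adjusted p = 0.15), and with the mean over its 7 probe sets it was -0.18 and past the threshold (limma adjusted p = 0.023). With a variance trend and robust fit COL4A6 also passed (limma adjusted p = 0.041).

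The COL4A1 and COL4A2 pair, whose chains form the common type IV network, lay at different levels on these arrays. The log2 ratio of COL4A1 to COL4A2 differed by 0.12 (miR-151a minus miR-NC), with overlapping groups (exact permutation p = 0.2). COL4A2 had intensities of 144, 139 and 145 with miR-151a and 165, 157 and 157 with miR-NC, without overlap, and lay at the edge of the threshold (log2 fold change -0.16, limma adjusted p = 0.051). It passed as lower in limma under 5 of the 13 alternatives, but its 2 other probe sets were at 0.00 and 0.12, and the mean over probe sets gave -0.01 (adjusted p = 0.87). All 3 probe sets of COL4A1 were dim, with the brightest at 10.5 ± 0.228 and 10.9 ± 0.582 (SD, n = 3 each), and their log2 fold changes lay between -0.06 and 0.06. COL4A3 and COL4A4, the pair known from kidney basement membrane, were dimmer still, at 7.90 ± 0.563 and 7.24 ± 0.582 with miR-NC (SD, n = 3 each), with log2 fold changes of -0.04 and -0.01.

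None of the 5 type VI genes passed in limma, where 8.11% of all genes were called lower and 7.27% higher. Of the 5, 2 had an unadjusted limma p under 0.05, both lower. COL6A3, the large chain of the type VI microfibril, had intensities of 5080.1, 5046 and 5122 with miR-151a and 5563, 5571 and 5493 with miR-NC. These do not overlap, yet the fall of its level was small (log2 fold change -0.12, interval -0.22 to -0.03, limma adjusted p = 0.084). Its other probe sets both passed as lower, at -0.19 and -0.32, and with the mean over probe sets COL6A3 passed in limma at -0.21 (adjusted p = 0.0099). COL6A1 had intensities of 2578, 2626 and 2596 with miR-151a and 2909, 2795 and 2846 with miR-NC, also without overlap (log2 fold change -0.13, limma adjusted p = 0.079), and 1 of its 6 probe sets fell.

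COL6A2, the remaining chain of the common type VI heterotrimer, had 384, 379 and 399 with miR-151a against 376, 375 and 411 with miR-NC. These overlap fully, with a log2 fold change of 0.00 and an interval from -0.12 to 0.13. The 3 other probe sets of COL6A2 did not pass in limma, with log2 fold changes from -0.02 to 0.15. Within each array the log2 ratio of COL6A1 to COL6A2 differed by -0.13 (miR-151a minus miR-NC) and that of COL6A3 to COL6A2 by -0.13, each without overlap between the groups. An exact two-sided permutation test gave p = 0.1 for both, the smallest that 3 against 3 samples allow, and 0.32 after Benjamini-Hochberg adjustment over the 8 subunit pairs compared. The ratio of COL6A1 to COL6A3 differed by -0.01 (exact permutation p = 0.9). The ratio of COL1A1 to COL1A2 differed by -0.06 and that of COL5A1 to COL5A2 by 0.07, with exact permutation p of 0.2 and 0.3. The remaining 3 pairs, among them COL4A5 and COL4A6, had exact permutation p from 0.2 to 0.7. The pairs were chosen after the values had been seen.

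Of the 21 genes of other types, 3 fell and 1 rose (14.3% and 4.76%, beside 8.11% and 7.27% of all genes). COL13A1, a membrane-spanning collagen of cell adhesion sites, had intensities of 213, 223 and 230.4 with miR-151a and 310.1, 282 and 291 with miR-NC. The groups did not overlap, and all 4 of its probe sets fell. Its level fell by 24.5% (log2 fold change -0.40, interval -0.53 to -0.28, limma adjusted p = 0.0029), a value that stayed between -0.44 and -0.36 over all 13 alternatives.

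COL8A1, a short-chain collagen of vessel walls and other matrices that forms lattices, had intensities of 404, 439.9 and 445 with miR-151a and 508, 508 and 490.5 with miR-NC. Its log2 fold change was -0.22 (limma adjusted p = 0.027), but the other probe sets of COL8A1 were dim and did not pass, and the mean over probe sets gave -0.12 (limma adjusted p = 0.15). In limma COL8A1 also no longer passed when replicate 1 or 2 of miR-151a was left out (adjusted p = 0.060 and 0.051), or any of the 3 miR-NC samples (0.085, 0.088 and 0.059). COL15A1, a multiplexin of the zone around basement membranes, had intensities of 88.1, 86.7 and 90.2 with miR-151a and 103, 103 and 102 with miR-NC, on a single probe set. The groups lay apart, with a log2 fold change of -0.21 (limma adjusted p = 0.015); leaving out replicate 1 or 2 of miR-NC gave 0.054 and 0.058, in a range from 0.0035 to 0.058 over the alternatives.

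COL21A1 was the 1 collagen gene that rose. It encodes a linker collagen of the group that binds to fibrils rather than forming them. Its brightest probe set had intensities of 31.4, 26.8 and 28.6 with miR-151a and 20.2, 23.7 and 19.6 with miR-NC, without overlap and only somewhat above the lower quartile of the genes, which was 18.5 with miR-NC. This gave a log2 fold change of 0.44 (interval 0.24 to 0.63, limma adjusted p = 0.013).

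The other probe sets of COL21A1 had larger fold changes, but at control levels below the lower quartile of the genes, where no detection calls were used and the size of a fold is uncertain. One had intensities of 32.7, 30.2 and 32.7 with miR-151a and 13.6, 14.7 and 14.96 with miR-NC, a log2 fold change of 1.09 (interval 0.96 to 1.23). The second had 18.3, 14.7 and 19.1 against 8.41, 9.13 and 9.80, a log2 fold change of 0.85. All 3 probe sets of COL21A1 therefore rose in limma over all 49293 probe sets, 6.81% of which were called higher. The value for COL21A1 ran from 0.20 with a pseudocount of 32 to 0.79 with the mean over probe sets, so its direction was the same in each setting and its size was not. Without miR-NC replicate 1 its limma adjusted p was 0.051.

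The remaining 17 genes of other types did not pass and had log2 fold changes from -0.18 to 0.22. COL7A1, which forms the anchoring fibrils under epithelia, had intensities of 968, 1071 and 975 with miR-151a and 960.4, 953 and 1067 with miR-NC, which overlap (log2 fold change 0.02, interval -0.13 to 0.17). COL16A1, a linker collagen, was at 328 ± 10.9 and 344 ± 19.8 (SD, n = 3 each), with an interval from -0.20 to 0.06. COL12A1, a linker collagen of type I fibrils, was at 308 ± 22.7 and 329.5 ± 8.74 (SD, n = 3 each), and its probe sets pointed both ways, from -0.21 to 0.29, with 1 dim probe set lower. COL18A1, the source of endostatin, was higher in each miR-151a sample than in any control but did not pass (log2 fold change 0.10, limma adjusted p = 0.20).

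**Figure D3:**
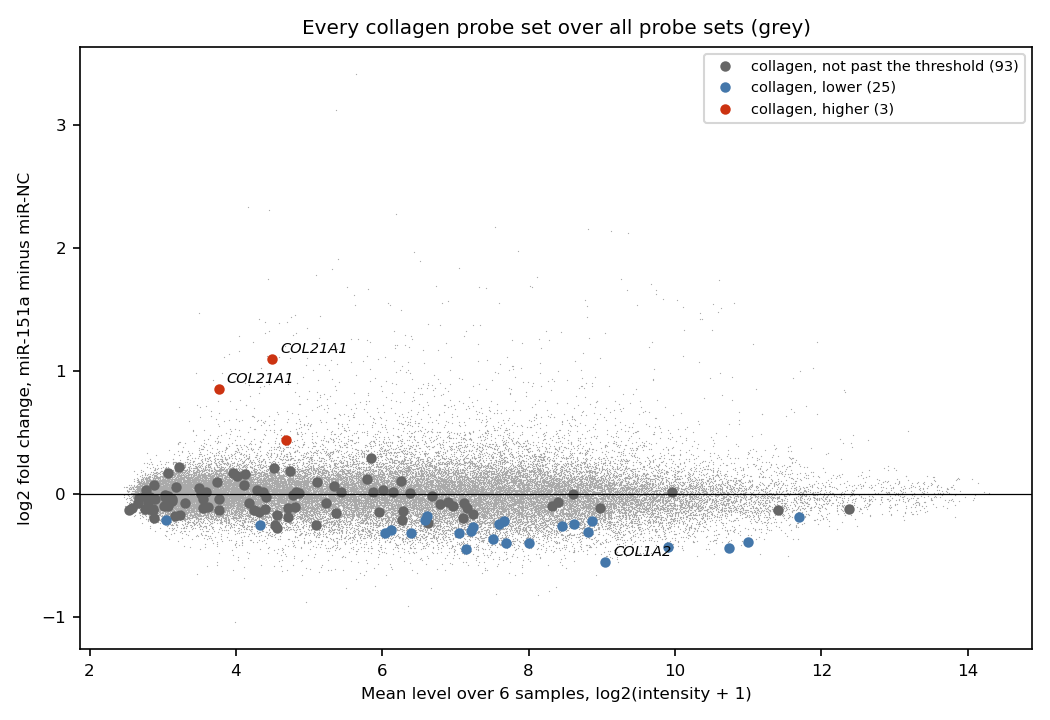
Log2 fold change (miR-151a minus miR-NC) of each of the 121 collagen probe sets against its mean level over the 6 samples, both on the log2(intensity + 1) scale, with all 49293 probe sets in grey. Blue points (25) are lower and red points (3, all COL21A1) higher at an adjusted p under 0.05; the blue points lie mostly at higher levels.

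Over probe sets, 25 of 121 were lower and 3 higher in limma adjusted over all 49293 probe sets, which is 20.7% and 2.48% beside 7.27% and 6.81% of all probe sets. The 8 genes called lower held 32 probe sets, of which 20 were lower and 0 higher. A further 5 lower probe sets belonged to COL6A3 (2), COL6A1, COL11A1 and COL12A1. Probe sets of 1 gene share its transcript and are no replicates of the condition. Leaving out miR-NC replicate 2 lowered the number from 25 to 15, and leaving out miR-NC replicate 3 to 16, but the share over all probe sets also fell, to 3.97% and 4.06%. With the replicate number as a block it was 16, beside 4.16% of all probe sets.

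How firmly each call held differed between the genes. COL1A1, COL1A2, COL5A2, COL4A5 and COL13A1 passed as lower in all 13 alternatives, including the removal of any 1 sample. With the mean over probe sets 9 collagen genes fell, where 9.34% of all genes did, and 1 rose, where 8.40% did. Quantile normalization gave 9 lower and 1 higher (8.77% and 8.02% of all genes), and median centring 9 lower and 1 higher (9.30% and 6.55%). A pseudocount of 32 gave 11 lower and 1 higher (12.2% and 9.64%), the low-value filter 11 and 1 (12.7% and 10.7% of 14389 genes) and the variance trend 12 and 1 (13.2% and 10.2%). The wider sets in these last fits took in COL4A2, COL6A1 and COL6A3, whose limma adjusted p as reported ran from 0.051 to 0.084.

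Removing a sample made calls scarcer over the whole array. The lower collagen genes numbered 6, 7 and 7 when replicates 1, 2 and 3 of miR-151a were left out, beside 5.05%, 5.63% and 5.18% of all genes. They numbered 5, 6 and 7 when replicates 1, 2 and 3 of miR-NC were left out, beside 4.57%, 4.53% and 4.41%. Without miR-NC replicate 3 the 7 held COL27A1 (limma adjusted p = 0.049) but neither COL5A1 nor COL8A1. COL27A1 passed in no other fit, and its limma adjusted p as reported was 0.40. Higher collagen genes numbered 1, 2 and 1 in the first of these series, beside 6.08%, 5.47% and 5.16% of all genes. In the second they numbered 0, 2 and 1, beside 5.05%, 4.89% and 5.07%, and the 0 became 1 at an unadjusted limma p under 0.05. The second higher gene was COL24A1 in the one case and COL19A1 in the other, both dim genes. With the replicate number as a block, 5 fell and 0 rose in limma (2 higher at an unadjusted p under 0.05), beside 4.53% and 4.99% of all genes.

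**Figure D4:**
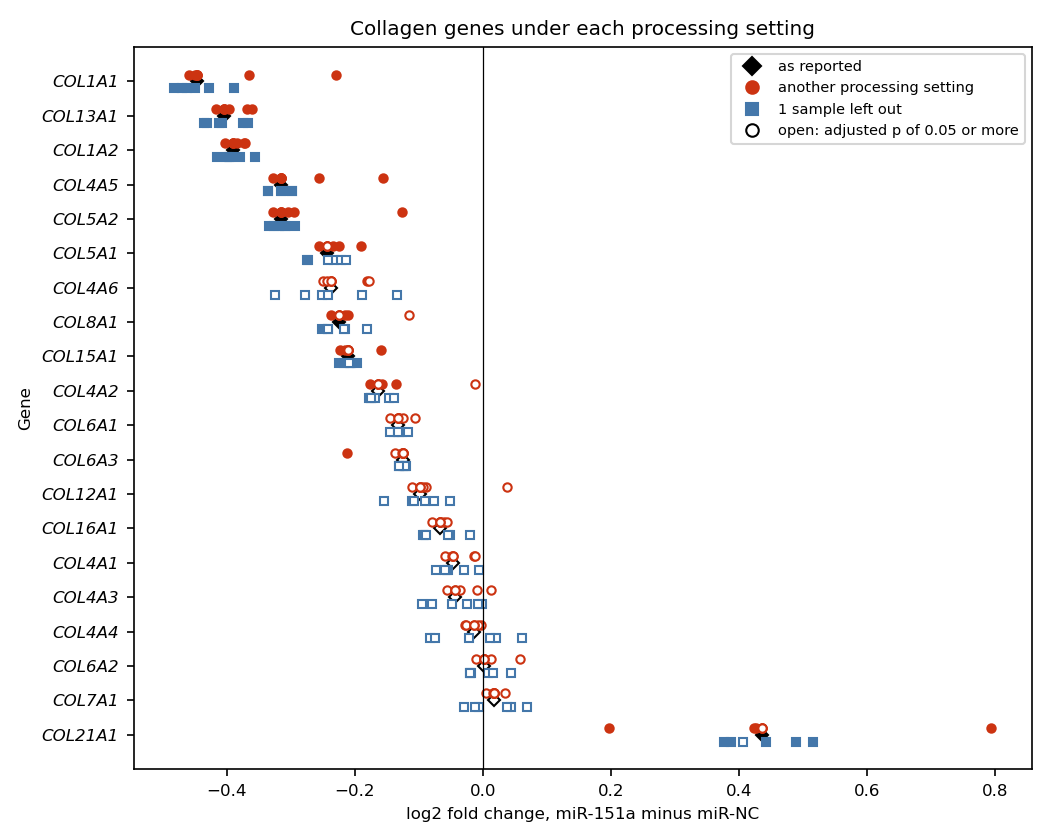
Log2 fold change (miR-151a minus miR-NC) of 20 collagen genes, namely those past the threshold, those above the median gene level and the type IV pairs. Black diamonds are the reported value, red circles other processing settings and blue squares the fits without 1 sample; open symbols have a limma adjusted p of 0.05 or more. The 5 genes COL1A1, COL13A1, COL1A2, COL4A5 and COL5A2 carry filled symbols throughout.

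Genes that fold, trim and crosslink collagen mostly lay below 0 as well. Of 34 measured genes of a collagen-processing list, 12 fell and 0 rose in limma (1 higher at an unadjusted p under 0.05), with a median log2 fold change of -0.13 and 28 below 0. Over all genes 8.11% fell, 7.27% rose and 52.6% lay below 0; 26 of the 34 were above the median gene level, where 14% fell and 56.3% lay below 0. LOXL2, a crosslinking lysyl oxidase, fell from 990.0 ± 18.7 to 741 ± 25.97 (SD, n = 3 each; limma adjusted p = 0.0014). ADAMTS3, which trims procollagen ends, was at -0.43, PCOLCE2, an enhancer of procollagen cleavage, at -0.36, and CREB3L1, a transcription factor of collagen secretion, at -0.30; with the mean over probe sets CREB3L1 was at -0.11 (limma adjusted p = 0.41). COLGALT2 was not analysed here.

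Among 10 collagen receptor and uptake genes, with a median of -0.06, 2 fell and 1 rose, beside 8.11% and 7.27% of all genes: the integrin genes ITGA10 at -0.40 and ITGA2 at -0.23, and the collagen-binding kinase DDR2 at 0.20. In limma ITGA2 no longer passed when replicate 3 of miR-151a or of miR-NC was left out (adjusted p = 0.051 and 0.056). DDR2 no longer passed in limma when replicate 3 of miR-151a (adjusted p = 0.066) or any miR-NC sample (0.063, 0.074 and 0.053) was left out. Of 7 collagenase genes, with a median of 0.03, 1 fell, MMP2 at -0.16, at the edge of the threshold (limma adjusted p = 0.04999), and without any 1 sample it did not pass (limma adjusted p from 0.069 to 0.16). Of 14 measured genes of laminins and other basement membrane partners 3 fell and 1 rose, beside the same shares of all genes, and their median was -0.0039. LAMB3, a laminin chain, rose from 153 ± 12.6 to 314.5 ± 12.8 (SD, n = 3 each; log2 fold change 1.04), while NID2, which links laminin to type IV collagen, was at -0.32, LAMA2 at -0.32 and LAMB1 at -0.19. LAMB1 did not pass in limma without any 1 sample (adjusted p from 0.070 to 0.14).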

How the data were processed

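Messenger RNA of 3 miR-151a and 3 miR-NC samples of U87 cells was measured on 1-colour arrays, and groups come from the sample titles. Deposited were intensities per probe set on a linear scale; per the submitters' processing notes MAS5 was used, with no version or role, while the sources used here do not state scaling or background correction. The distributions of the 6 columns were alike, so a shift shared by most genes would not be seen, and no detection calls were used. Precision is limited by having 6 arrays, and within groups the SD of a gene had a median of 0.075 on the log2 scale.

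From the deposited intensities, log2(intensity + 1) values were computed; fold changes on this scale understate changes of dim genes. Without 102 control probe sets, 49293 remained. Of these, 44988 named 1 gene, 1832 several and 2473 none in the platform annotation, whose symbols were updated through Entrez identifiers to RefSeq for 44961. The brightest probe set stood for its gene, and the others served as a check. The test was limma 3.58.1 (lmFit, then eBayes, with group as the only term; R 4.3.3). P-values were adjusted by Benjamini-Hochberg over all genes, or all probe sets, with a threshold of 0.05. The fit was tested on simulated data with independent, normally distributed errors, which cannot show how it behaves where replicates share a culture. Figures were drawn with matplotlib 3.10.9.

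The members and lists were chosen with earlier results of these data known, so no list was tested as a set. Named were collagen genes past the threshold, those above the median gene level in either group and the type IV pairs. Up to 4 passing genes of each other list were also named. COL3A1, COL5A3, COL11A1, COL18A1, COL19A1, COL24A1 and COL27A1 were named after their values were seen. As alternatives, the mean over probe sets replaced the brightest one, the pseudocount was set to 32, probe sets under the 0.25 quantile of the mean were removed, values were median-centred or quantile-normalized, limma used a variance trend and robust fit or the replicate number as a block, and each sample was left out.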

Additional observations from a re-analysis of the deposited data

How the results depend on the processing

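The 5 genes named as holding in all 13 alternatives kept their direction and their side of the threshold. With quantile normalization, median centring, a pseudocount of 32, the filter on low values and the variance trend, the count of lower collagen genes stayed within 1.5 times of 8. Same-numbered samples did not deviate together (correlations of -0.11, -0.15 and 0.07), so the numbers were not taken as pairs. With the replicate block, 5 collagen genes and 16 collagen probe sets were lower and 0 collagen genes were higher in limma (2 at an unadjusted p under 0.05); 4.53% of all genes were lower and 4.99% higher in that fit. The block also left 1 lower and 0 higher receptor gene (3 and 2 at an unadjusted p under 0.05) and 0 lower collagenase genes, where quantile normalization also gave 0 (1 unadjusted in each). Receptor genes called higher numbered 2 with the low-value filter, the mean over probe sets or quantile normalization, and processing genes called higher numbered 2 with the mean over probe sets. Without 1 sample, lower collagen genes ranged from 5 to 7, higher ones from 0 to 2, lower collagen probe sets from 15 to 20, lower receptor genes from 1 to 2, higher receptor genes from 0 to 1, and lower collagenase genes were 0 in each (1 to 2 unadjusted). Signs turned under some alternative for 14 of the 43 collagen genes, 0 of which passed in any alternative; 9 of these are not among the 20 genes followed by setting. The other 5 were COL4A3 (0.013) and COL12A1 (0.037) with the mean over probe sets, COL6A2 with median centring (-0.011), and, without 1 sample, COL4A4 (-0.083 to 0.061), COL6A2 (-0.021 to 0.044) and COL7A1 (-0.030 to 0.069). The causes were not tested. Dim members limit what can be said: values near the array's floor carry little signal over background.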
